A study of Mus with 8 samples.

Results

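The growth hormone, STAT5 and IGF1 axis of the liver was followed through 10 genes in mouse liver RNA. The genes were picked by name from the table of counts, and all 10 were among its 54532 genes: the receptor gene Ghr, the transcription factor genes Stat5a, Stat5b and Bcl6, the feedback inhibitor genes Socs2 and Cish, the secreted hormone gene Igf1, and the genes of its carriers, Igfals, Igfbp1 and Igfbp2. They were proposed with results of the same comparison in view, so their differences between the groups are given as a description, and no test of the set as a whole was made.

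All mice had colitis from dextran sulfate sodium (DSS), a polysaccharide that injures the lining of the colon, given at 2.5% and stopped on day 6. The 4 libraries labelled DSS (numbers 15, 48, 49 and 50) carry DSS as their only treatment label. The 4 libraries here called the diet-alcohol group (numbers 35, 45, 65 and 71) are labelled with alcohol, a high-fat diet and DSS. The design text names a pair of interventions after DSS, a purified high-fat feed and a high-fat feed with alcohol, and the labels do not say which feed, if either, the DSS libraries had. The sources used here do not give strain, age, the dose of alcohol or the length of the feeding. Diet and alcohol were given together, every library came after DSS, and no mouse without DSS was analysed here. Nothing in the labels says that each library is a separate mouse, so the p-values reflect library-to-library spread, which may be technical. Xist had 0 counts in every library and the Y-linked gene Ddx3y 245 to 712, the pattern of male liver.

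Growth hormone from the pituitary binds GHR on hepatocytes, which activates the kinase JAK2 and then the transcription factors STAT5A and STAT5B. STAT5 turns on Igf1 and Igfals, whose products circulate as a complex of IGF1, an IGF binding protein and the acid-labile subunit, and it also turns on Socs2 and Cish, whose products damp the receptor's signal. In male mice growth hormone arrives in pulses, and STAT5, with the repressor BCL6, sets the male pattern of liver genes.

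Between 12502300 and 16967839 counts were listed per library, of which mitochondrially encoded genes took 55.8 to 79.1% in the DSS group and 30.2 to 73.0% in the diet-alcohol group, with library 65 at 73.0%. That left 2722757 to 6170482 counts of other genes in the DSS libraries, and 7226836, 10947612, 3453086 and 10453265 in libraries 35, 45, 65 and 71. Depth for these genes thus differed between the groups, library 65 apart. Library 35 stood apart. Only 784 of its genes had 1 to 9 counts, where each of the other 7 libraries had 4319 to 4987 such genes. Of 4337 tested genes with a mean of 1 to 5 CPM (counts scaled to library size, with TMM normalization), 20% were at 0 in library 35 and at most 0.715% in any other. Of the 10 hepatocyte markers none was at 0 in any library and none passed the test (3 were lower at an unadjusted p under 0.05, and 2 by DESeq2), but their summed level was 42664 to 66342 CPM in the DSS group and 23855 to 29842 in the diet-alcohol group. Alb, the albumin gene, made up 75.1 and 67.1% of that sum. The markers moved unequally, and those named here were picked after their values were seen. On the log2 scale, diet-alcohol over DSS, Alb was at -1.20 and Apob at -0.99. Serpina1c (-0.21), Tdo2 (-0.18), Cps1 (-0.14) and Tat (0.0070) differed least, with the others between. In bulk tissue fewer hepatocytes and less of these transcripts per hepatocyte cannot be told apart. The 10 neutrophil markers summed to 3.95 to 16 CPM in the DSS group and 36.0 to 80.0 CPM in the diet-alcohol group, with 4 of the 5 tested called higher, and their part in the results that follow was not tested.

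The genes that passed the test were a feedback inhibitor and a pair of IGF1 carriers. The receptor and STAT5 genes did not pass, which does not show that they were unchanged. Socs2 fell 6.84-fold, Igfals 6.91-fold and Igfbp2 5.25-fold in the diet-alcohol group. Igf1 stood at 127 ± 62.6 CPM there, against 253 ± 26.8 in the DSS group (SD, n = 4 each), and did not pass the test. Of the 10 genes, all of which passed the filter on low counts and were tested, 3 fell, none rose and 7 did not pass (adjusted p under 0.05 over all 11729 genes tested, by the quasi-likelihood F test of edgeR). None was higher at an unadjusted p under 0.05 or by DESeq2 or limma-voom, and 4 were lower at an unadjusted p. An unadjusted p under 0.05 was far more common than a call: Ghr, at 0.052 by edgeR, ranked 1408 of the 11729 genes tested. At an adjusted p under 0.05 by edgeR, 0.674% of all genes tested fell and 0.588% rose. DESeq2 called 264 lower and 220 higher, and limma-voom 75 and 46. The groups did not overlap for 4 of the 10, all lower in the diet-alcohol group, where 4.63% of all genes tested were lower without overlap. The median log2 fold change was -0.79 over the 10 genes and -0.0058 over all genes tested. These members were chosen knowing this comparison, so nothing is read from those counts.

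**Figure D1:**
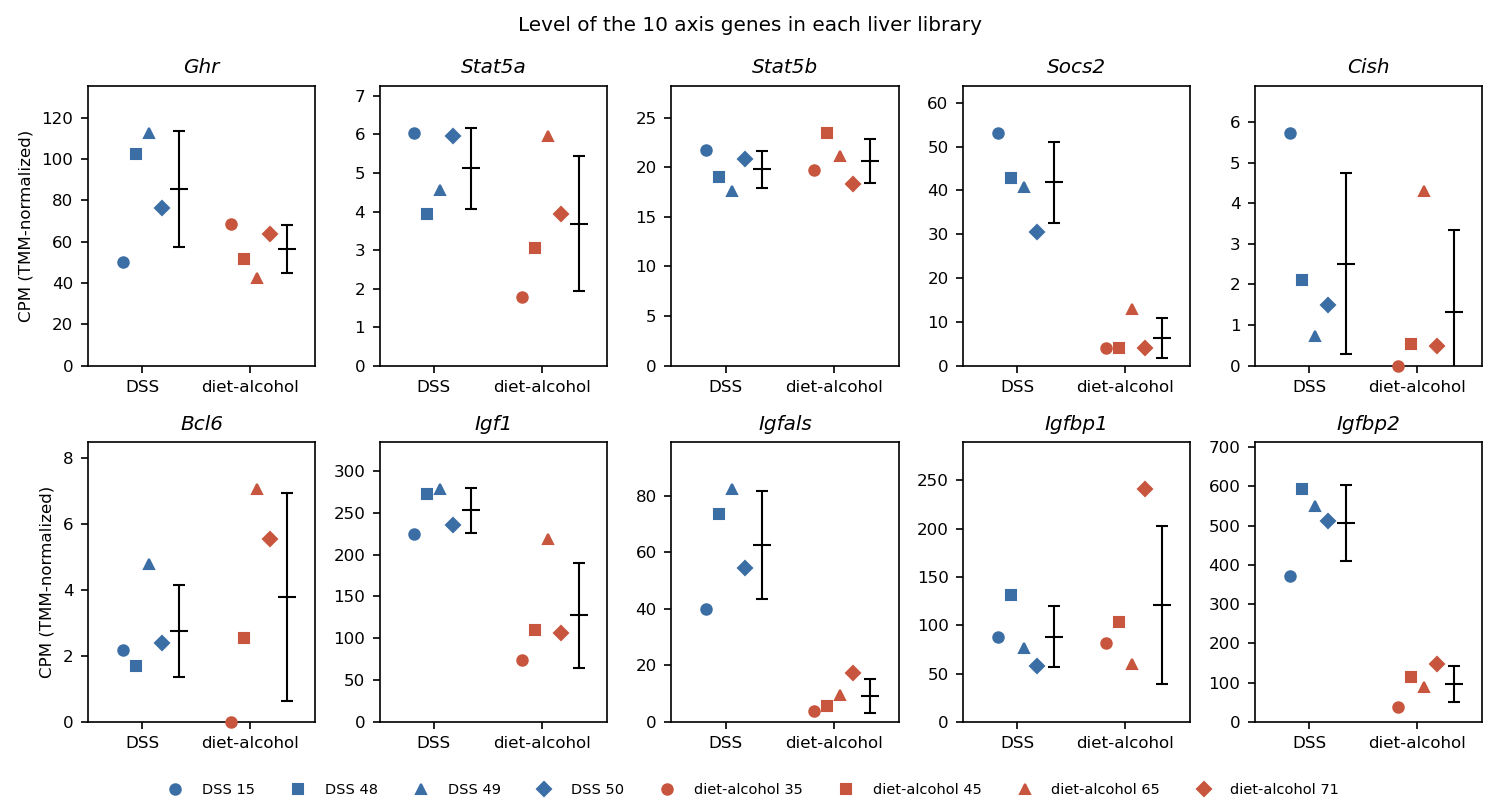
Level of each of the 10 genes in TMM-normalized CPM (vertical axes start at 0) in the 4 DSS and 4 diet-alcohol libraries; each symbol is a library, and the black dash and bar are the group mean and SD. Socs2, Igfals, Igfbp2 and Igf1 show no overlap between the groups, and Stat5b lies between 17.6 and 23.5 CPM in all 8.

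The receptor gene Ghr (chromosome 15, 3317760 to 3583492, minus strand, GRCm38) had 50.4, 102, 113 and 76.4 CPM in DSS libraries 15, 48, 49 and 50. Its values in diet-alcohol libraries 35, 45, 65 and 71 were 68.5, 51.6, 42.3 and 63.5 CPM. The groups overlapped, with DSS 15 inside the diet-alcohol range. The log2 fold change was -0.60 ± 0.27 (SE; adjusted p by edgeR = 0.436). Downstream of the receptor, the kinase gene Jak2, named for its role after its values were seen, differed by 0.16 ± 0.33 (adjusted p by edgeR = 0.911). It stood at 6.19 ± 1.85 and 6.86 ± 2.36 CPM in the DSS and diet-alcohol groups (SD, n = 4 each). Scaled to hepatocyte markers, an alternative fit described below, Jak2 was at 1.17 (adjusted p by edgeR = 0.019). The median of all genes was at 1.0 in that fit, where 45% of all genes were called higher.

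Stat5b and Stat5a, which encode the STAT5 proteins, are neighbours on chromosome 11 (100780731 to 100850724, minus strand, and 100859351 to 100885169, plus strand, GRCm38), 8627 bases apart and read in opposite directions. Stat5b was the steadiest of the 10, at 21.7, 19.0, 17.6 and 20.9 CPM in DSS libraries 15, 48, 49 and 50. It had 19.7, 23.5, 21.1 and 18.3 CPM in diet-alcohol libraries 35, 45, 65 and 71, so the ranges nearly coincided. Its log2 fold change was 0.060 ± 0.19 (adjusted p by edgeR = 0.944). Stat5a ran from 3.93 to 6.05 CPM in the DSS group and stood at 1.79, 3.05, 5.96 and 3.93 CPM in libraries 35, 45, 65 and 71. The value in library 65 matched the higher DSS values and that in library 35 was the lowest of all 8 (difference of -0.49 ± 0.39 on the log2 scale, adjusted p by edgeR = 0.713). Per gene length, Stat5b was 4.51 to 6.23 times Stat5a in the DSS libraries and 14.2, 9.94, 4.55 and 6.00 times in libraries 35, 45, 65 and 71, as ratios of the deposited FPKM (fragments scaled to gene length and library size). The end of Stat5a overlaps that of Stat3 on the other strand by 72 bases, and the 2 STAT5 genes are close paralogs, so reads could have been shared between them. Whether the counting used strand is not given here.

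Socs2 (ENSMUSG00000020027, chromosome 10, 95385362 to 95417180, minus strand, GRCm38) encodes a suppressor of cytokine signalling that attaches to the activated receptor and is itself induced through STAT5. It had 53.2, 42.9, 40.9 and 30.5 CPM in DSS libraries 15, 48, 49 and 50. Diet-alcohol libraries 35, 45 and 71 stood at 4.03, 3.99 and 4.05 CPM, and library 65 at 13.0. Those 3 values were nearly identical, library 65 stood above them, and all 4 lay below the lowest DSS value. The log2 fold change was -2.77 ± 0.41 (adjusted p by edgeR = 0.0076), and it was -3.38 (10.4-fold lower) without library 65. The call held in each of the 20 alternative fits, with adjusted p up to 0.037. Within a library, the ratio of Socs2 to Ghr in FPKM was 0.344 to 1.0 in the DSS group and 0.0559 to 0.293 in the diet-alcohol group, without overlap.

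Cish (chromosome 9, 107296026 to 107302784, plus strand, GRCm38), which encodes another STAT5-induced inhibitor of the same family, was scarce, with 202 counts in all. It had 5.74, 2.10, 0.719 and 1.49 CPM in the DSS libraries 15, 48, 49 and 50, and 0, 0.535, 4.31 and 0.476 CPM in the diet-alcohol libraries 35, 45, 65 and 71. As for Socs2, library 65 was the highest of its group, here within the DSS range, while libraries 35, 45 and 71 were below every DSS library. Library 35 listed 20% of genes with a mean of 1 to 5 CPM at 0, so its 0 for Cish sets no limit. The log2 fold change was -1.03 ± 1.10 (adjusted p by edgeR = 0.797), or -2.86 without library 65 (adjusted p by edgeR = 0.265).

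Bcl6 (chromosome 16, 23965052 to 23988852, minus strand, GRCm38) encodes a repressor that competes with STAT5 for its sites in male liver and is also a marker of germinal-centre B cells. It ran from 1.68 to 4.79 CPM in the DSS libraries. In the diet-alcohol libraries 35, 45, 65 and 71 it had 0, 2.55, 7.07 and 5.56 CPM, with the highest value of the 8 in library 65. As for Cish, the 0 in library 35 sets no limit. The log2 fold change was 0.46 ± 0.91 (adjusted p by edgeR = 0.908), 0.88 without library 35, -0.0040 without library 65 and -0.76 with limma-voom, so no direction can be given. B and plasma cell markers were scarce in both groups: the 6 together had 1.75 to 3.44 CPM in the DSS group and 0.635 to 5.85 in the diet-alcohol group, none passed the filter on low counts, and their part in the Bcl6 values was not tested.

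Igf1 (ENSMUSG00000020053, chromosome 10, 87858265 to 87937042, plus strand, GRCm38), the hormone gene at the end of the pathway, had 225, 273, 278 and 235 CPM in DSS libraries 15, 48, 49 and 50. It had 74.6, 109, 218 and 107 CPM in the diet-alcohol libraries 35, 45, 65 and 71. Library 65 lay just under the lowest DSS value, and the other 3 were well below it. The log2 fold change was -0.99 ± 0.31 (1.99-fold lower; adjusted p by edgeR = 0.185). Without library 65 it was -1.38 and passed (adjusted p by edgeR = 0.020; 0.627% of genes fell in that fit), as it did without a filter on low counts (-1.01, 0.047; 0.785% of genes fell). The authors' deposited table lists a log2 fold change of -0.99 and an adjusted p of 0.0746. An antisense gene, Igf1os, overlaps Igf1 by 5117 bases and had 367 counts in all, against 20049 for Igf1.

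Igfals (ENSMUSG00000046070, chromosome 17, 24878770 to 24882008, plus strand, GRCm38) encodes the acid-labile subunit, which hepatocytes secrete and which holds IGF1 in its large circulating complex. It had 39.8, 73.6, 82.4 and 54.4 CPM in DSS libraries 15, 48, 49 and 50. The diet-alcohol libraries 35, 45, 65 and 71 had 3.75, 5.60, 9.39 and 17.3 CPM, all below the lowest DSS library. Here library 71, not 65, was the highest of the diet-alcohol group. On the log2 scale Igfals fell by 2.79 ± 0.45 (adjusted p by edgeR = 0.011). The call was lost without DSS 48 or diet-alcohol 45 (adjusted p by edgeR = 0.051 each) and with the mitochondrial share as a covariate (log2 fold change -2.91, adjusted p by edgeR = 0.088).

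Igfbp2 (ENSMUSG00000039323, chromosome 1, 72824503 to 72852474, plus strand, GRCm38) encodes an IGF binding protein that hepatocytes secrete. It had 372, 594, 549.5 and 511 CPM in the DSS libraries 15, 48, 49 and 50 and 37.3, 113, 88.9 and 146 in libraries 35, 45, 65 and 71. The highest diet-alcohol value was well under the lowest DSS value. On that scale Igfbp2 fell by 2.39 ± 0.38 (adjusted p by edgeR = 0.0096), and the call was lost with the mitochondrial share as a covariate (-2.56, adjusted p by edgeR = 0.076). Igfbp1 (ENSMUSG00000020429, chromosome 11, 7197782 to 7202546, plus strand, GRCm38) encodes a carrier that insulin represses and that rises in fasting. It had 88.2, 131, 76.6 and 57.5 CPM in the DSS libraries 15, 48, 49 and 50 and 81.2, 103, 60.0 and 241 CPM in libraries 35, 45, 65 and 71. Library 71 was high and the other 3 lay within the DSS range. The log2 fold change was 0.46 ± 0.41 (adjusted p by edgeR = 0.754), or -0.12 without library 71 and -0.39 with the mitochondrial share as a covariate.

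**Figure D2:**
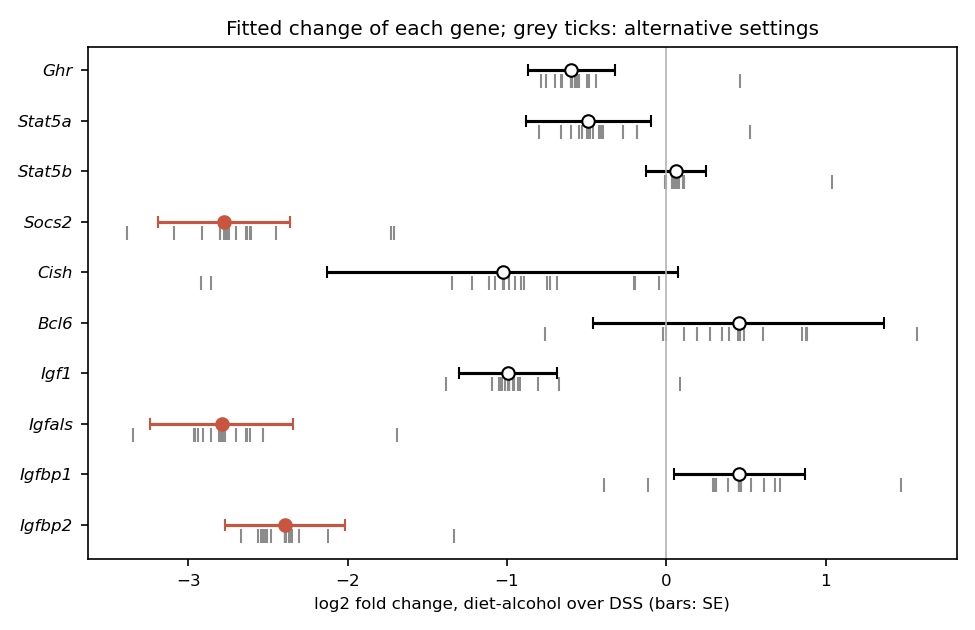
Log2 fold change of each gene, diet-alcohol over DSS (horizontal axis), with its SE as a bar; filled red points passed the test at an adjusted p under 0.05, and grey ticks are the values under the alternative settings. Socs2, Igfals and Igfbp2 lie between -2.39 and -2.79, and the far right tick of most genes is the fit scaled to hepatocyte markers.

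Scaling the libraries to the summed hepatocyte markers, an alternative chosen after the data were seen, compares these genes with albumin and the other markers. It shifted the median of all genes by 1.0 on the log2 scale and gave 5281 higher and 48 lower calls, against 69 and 79 with TMM. In that fit Socs2 (log2 fold change -1.73, adjusted p by edgeR = 0.016), Igfals (-1.69, 0.011) and Igfbp2 (-1.33, 0.014) were still lower and called, where 0.409% of genes were called lower. Igf1 was at 0.084 and Ghr at 0.46, so their values were not lower in the diet-alcohol group relative to the marker sum, most of which is Alb. With TMM the single markers ran from -1.20 (Alb) to 0.0070 (Tat) on the log2 scale, so this reading does not extend to each marker. Stat5b at 1.04 (adjusted p by edgeR = 0.012) and Igfbp1 at 1.47 (0.018) were called higher, as were 45% of all genes.

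Levels were compared between genes per length, on the FPKM scale. In the DSS group Igfbp2 was the most abundant of the 10, at 268 ± 49.8 FPKM (SD, n = 4), and its range did not overlap that of Igfbp1 (56.8 ± 20.2). Igfbp1 overlapped Igfals (29.0 ± 8.80), which overlapped Igf1 (25 ± 2.59). Ghr (9.23 ± 2.99) followed below all of these, with its range overlapping that of Socs2 (4.31 ± 0.994), which overlapped Stat5b (3.50 ± 0.338). Stat5a, Bcl6 and Cish came last, at 0.703, 0.403 and 0.385 FPKM. In the diet-alcohol group the mean of Igfbp1 (77.7 ± 51.9) was above that of Igfbp2 (51.2 ± 24.2), with overlapping ranges. Igfals, above Igf1 and Ghr by its DSS mean, came at 4.18 ± 2.77 FPKM, after Igf1 (12.6 ± 6.35) and Ghr (6.10 ± 1.22) by mean. Its range there, 1.72 to 7.99 FPKM, overlapped those of Ghr (4.64 to 7.35) and Igf1 (7.31 to 21.8). Socs2 dropped below Stat5b, to 0.648 ± 0.473 against 3.65 ± 0.411 FPKM, and those ranges did not overlap.

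**Figure D3:**
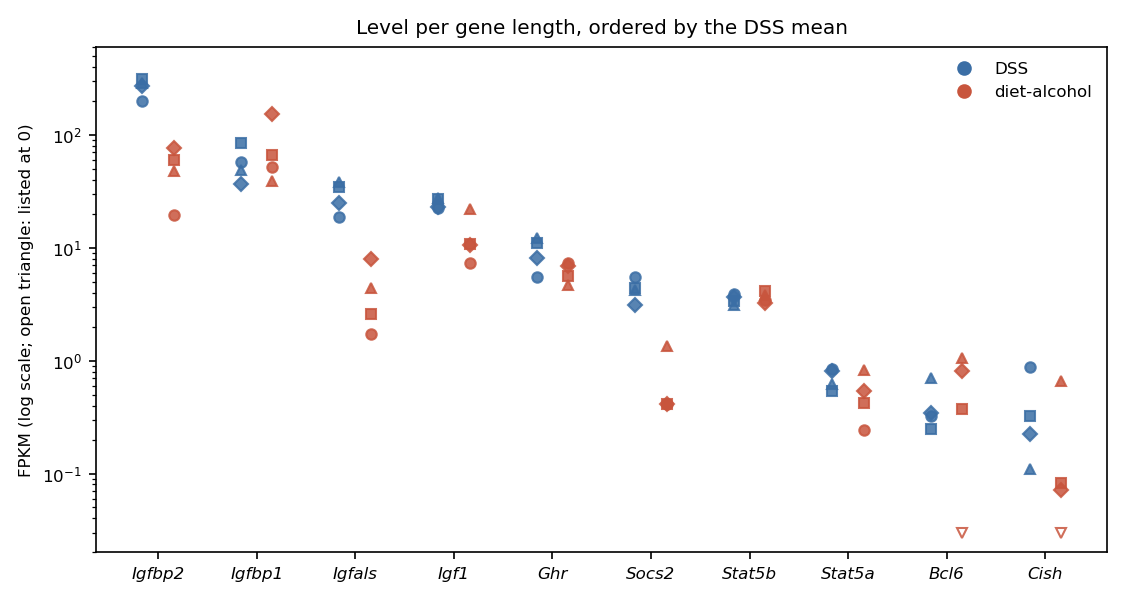
Deposited FPKM of each gene on a log axis, in order of the DSS mean, with DSS libraries in blue and diet-alcohol libraries in red; open triangles mark libraries listed at 0. Igfbp2 leads the DSS order at a mean of 268 FPKM, and Igfals and Socs2 take lower places by mean in the diet-alcohol group. There the range of Igfals overlaps those of Ghr and Igf1.

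Ratios within a library do not depend on library size. Igfals over Igf1 in FPKM was 0.832, 1.27, 1.39 and 1.08 in DSS libraries 15, 48, 49 and 50 and 0.236, 0.240, 0.202 and 0.762 in libraries 35, 45, 65 and 71. The carrier transcript was thus lower against its ligand in all 4 diet-alcohol libraries, library 65 included, in which Igf1 itself was near the DSS level. Igfbp2 over Igf1 likewise did not overlap between the groups, at 8.87 to 11.7 and 2.19 to 7.35. Igfbp1 over Igfbp2 was 0.136 to 0.287 in the DSS group and 0.817 to 2.63 in the diet-alcohol group, a mean of 0.215 ± 0.0737 against 1.64 ± 0.833 (SD, n = 4 each). Igfbp1 over Igf1 was 1.59 to 3.12 in the DSS group and 7.07, 6.13, 1.79 and 14.7 in libraries 35, 45, 65 and 71, so library 65 lay within the DSS range.

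**Figure D4:**
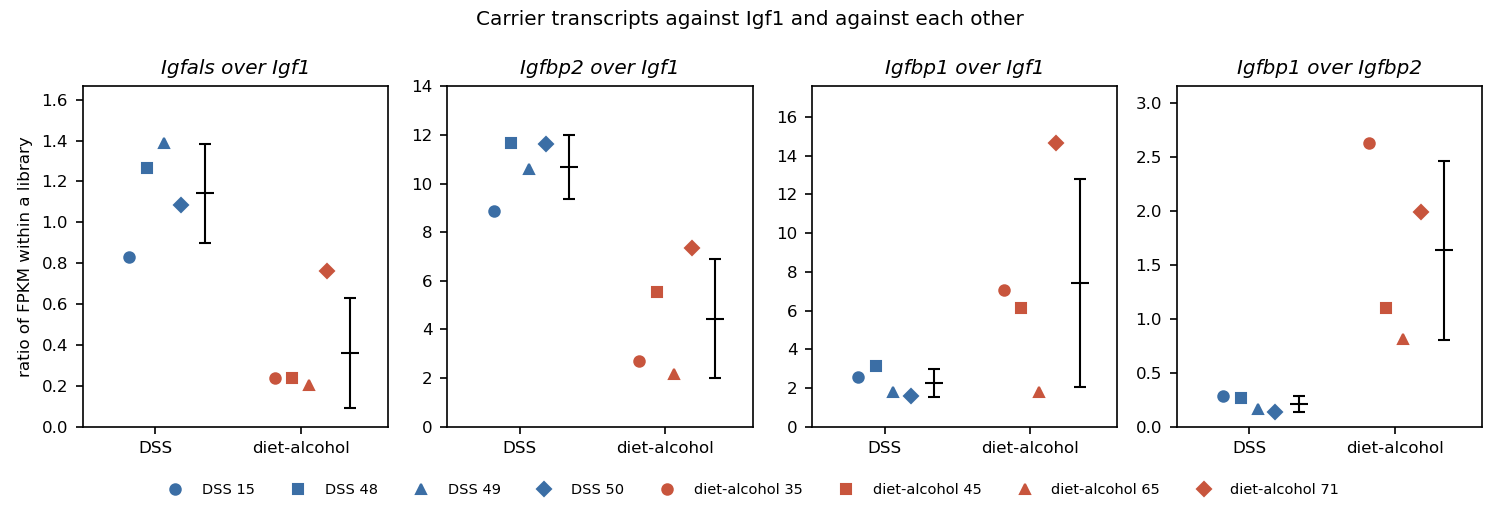
Ratio of the FPKM of 2 genes within each library (vertical axes start at 0), with the group mean and SD as a black dash and bar. Igfals and Igfbp2 over Igf1 are lower, and Igfbp1 over Igfbp2 higher, in every diet-alcohol library, and library 65 alone keeps Igfbp1 over Igf1 (1.79) in the DSS range.

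The diet-alcohol libraries differed among themselves in a gene-by-gene way. Library 65 had the highest value of its group for 5 of the 10 genes, Socs2, Cish, Stat5a, Bcl6 and Igf1. Library 71 had the highest for Igfals, Igfbp1 and Igfbp2, and library 35 the lowest for 6, among them Igf1, Igfals and Igfbp2. Those 6 include its values of 0 for Cish and Bcl6. Beside this, library 65 had a mitochondrial share of 73.0%, within the DSS range, where libraries 35, 45 and 71 had 42.2, 35.5 and 30.2%. With that share as a covariate, Socs2 was the 1 gene of the 10 that passed (log2 fold change -2.45, adjusted p by edgeR = 0.031; 0.230% of genes fell in that fit), and Igf1 stood at -0.67 (0.512). Whether the higher Socs2 and Igf1 of library 65 go with that share was not tested beyond this.

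The wider pathway was read from gene lists, some of which share genes with the 10 of the axis. They were chosen with earlier results of these data known. Of 21 genes of growth hormone receptor signalling and its brakes, 5 are among the 10, and 20 were tested. Socs2, already counted among the 10, fell and the other 19 did not pass, and the median log2 fold change was -0.0023. Without adjustment 3 were higher and 2 lower at p under 0.05, and DESeq2 called 1 in each direction. Over all 11729 genes tested, DESeq2 called 220 higher and 264 lower, and an unadjusted p by edgeR of 0.052 (Ghr) ranked 1408. Scaled to hepatocyte markers, 9 were called higher and 1 lower (median 1.01), where 45% of all genes were called higher. Genes named here by their role after their values were seen include Socs3, the inhibitor induced by interleukin-6 through STAT3, at 3.88 ± 3.58 CPM with DSS and 16.9 ± 11.9 CPM with diet and alcohol (log2 fold change 2.07 ± 0.62, adjusted p by edgeR = 0.166). It passed without DSS 15 (2.98, adjusted p by edgeR = 0.037), by DESeq2 (2.11, 0.022) and when scaled to hepatocyte markers (2.99, 0.012). Stat3 stood at 35.6 ± 16.1 and 62.8 ± 12.2 CPM (0.82 ± 0.30, adjusted p by edgeR = 0.277; 1.18 and 0.046 without DSS 15, and 1.72 and 0.0066 when scaled to hepatocyte markers). For Prlr, the prolactin receptor gene, it was -1.05 ± 0.35 (adjusted p by edgeR = 0.222; 0.043 without a filter on low counts), or 0.059 when scaled to hepatocyte markers. Socs1 had 18 counts in all and was not tested.

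The list of IGF ligands, receptors, carriers and carrier proteases had 18 genes, of which 4 are among the 10 of the axis. Of its 10 tested genes Igfals and Igfbp2, already counted for the axis, fell and the other 8 did not pass (median log2 fold change -0.87). DESeq2 called 4 lower and 0 higher, where it called 264 of all 11729 genes lower. Igfals and Igfbp2 lost their calls in the edgeR fit that added mitochondrial share as a term (adjusted p = 0.088 and 0.076; list median -0.72). When scaled to hepatocyte markers 2 were called lower and 3 higher, with a median of 0.20, where 45% of all genes were called higher. The genes named next were likewise picked by role after their values were seen. Igf2 had no count in any library. Igfbp4, another carrier gene that liver expresses, stood at 428 ± 90.4 and 256 ± 49.8 CPM (log2 fold change -0.74 ± 0.24, adjusted p by edgeR = 0.211, by DESeq2 0.047), or 0.31 when scaled to hepatocyte markers. Igf2r, which encodes the receptor that clears IGF2, stood at 15.1 ± 3.09 and 6.41 ± 2.43 CPM (-1.22 ± 0.31, adjusted p by edgeR = 0.098). The adjusted p by edgeR was 0.041 without library 35, 0.019 without a filter on low counts and 0.318 without DSS 48, and 0.012 by DESeq2. When scaled to hepatocyte markers Igf2r was at -0.20 (adjusted p by edgeR = 0.579). Igfbp3, whose product carries IGF1 in the complex with the acid-labile subunit, lies 3540 bases from Igfbp1 on the opposite strand; its log2 difference was 0.24 ± 0.49 (adjusted p by edgeR = 0.911; 1.32 and 0.046 when scaled to hepatocyte markers). Igfbp5, 5458 bases from Igfbp2, had 78 counts in all and was not tested.

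The list of Bcl6, corepressors and liver transcription factors had 15 tested genes and that of insulin and FoxO targets 17, of which Bcl6 and Igfbp1 respectively are members of the 10. None passed in either direction (adjusted p under 0.05 by the quasi-likelihood F test of edgeR), with medians of -0.35 and -0.059. At an unadjusted p under 0.05, 0 genes of the Bcl6 list and 3 of the insulin list passed, all 3 lower. DESeq2 called 0 and 1, and limma-voom 0 in both. Over all 11729 genes tested, DESeq2 called 264 lower, and an unadjusted p by edgeR of 0.052 (Ghr) ranked 1408. When scaled to hepatocyte markers, 5 genes of the Bcl6 list and 11 of the insulin list were called higher and 0 lower. The medians were 0.69 and 0.97, where 45% of all genes were called higher. Without library 35, 1 gene of the insulin list was called lower, where 166 of 12097 genes fell.

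Genes that depend on the male growth hormone pattern had the most calls of the 6 lists. The lists were chosen with earlier results known, so nothing is read from that order. Of 22 tested genes of this kind, 12 fell and 10 did not pass, where 0.674% of all genes tested fell. All 22 had values below 0 (median log2 fold change -2.75). Without library 35 the count was 15 (median -3.17), where 166 of 12097 genes fell. When scaled to hepatocyte markers it was 11 (median -1.78; 0.409% of all genes), and in the fit with the mitochondrial share 10 (0.230%). Mup21 (-6.08 ± 0.38, adjusted p by edgeR = 3.4e-05), Mup20 (-4.46 ± 0.49, 0.0018) and Mup3 (-3.13 ± 0.35, 0.0018) encode urinary proteins of a multigene family between whose members reads could have been shared, and Selenbp2 (-4.58 ± 0.52, 0.0022) encodes a selenium-binding protein. Of 25 female-biased genes 12 were tested, of which 1 rose and 2 fell (median 0.30). The median turned to -0.30 in the fit that added mitochondrial share as a term, where 1 gene was called lower and 0 higher. When scaled to hepatocyte markers the median was 1.26, with 5 called higher and 1 lower, where 45% of all genes were called higher. Cyp2b9 stood at 1.35 ± 0.759 and 20.3 ± 20.5 CPM and rose by 3.91 ± 0.77 (log2 scale; adjusted p by edgeR = 0.032), a call that held without library 71 and was lost without each of the other 7 (adjusted p up to 0.153). Cyp2a4, a steroid hydroxylase gene with a near-identical relative, fell by 5.84 ± 0.93 (adjusted p by edgeR = 0.010), a call lost without DSS 50 or diet-alcohol 45 (0.061 and 0.051). Cyp4a14, also a target of PPAR-alpha, fell by 1.87 ± 0.40 (adjusted p by edgeR = 0.047), a call that held without library 35 or 71 and was lost without each of the other 6 (up to 0.167). With limma-voom Cyp2b9 and Cyp2a4 also lost their calls (adjusted p = 0.440 and 0.145), as they did in edgeR with the mitochondrial share as a covariate (0.124 and 0.062). Cyp2b9 further lost it without a filter on low counts (edgeR, 0.226) and with limma on log2(FPKM + 1) and log2(FPKM + 0.1) (0.120 and 0.085). Cyp4a14 lost it on those FPKM scales (0.056 and 0.080), with the non-robust edgeR fit (0.051) and when scaled to hepatocyte markers (0.075).

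**Figure D5:**
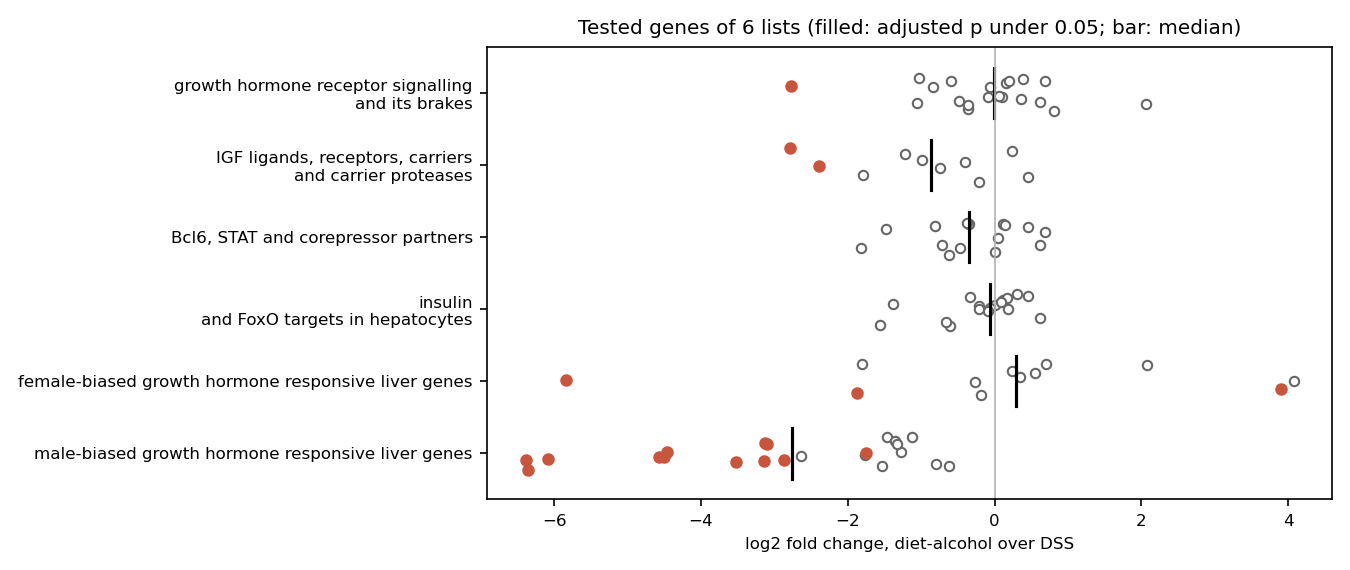
Log2 fold change, diet-alcohol over DSS, of each tested gene in 6 lists; filled points passed the test, open points did not, and the black bar is the list median. The male-biased list lies wholly below 0 with a median of -2.75, and the receptor signalling list centres at -0.0023 with Socs2 as its filled point.

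Genes with the closest profiles were ranked by the root mean square difference between log2 CPM values over the 8 libraries, each gene centred on its own mean, among 9017 candidates. Nearest to Igf1 were Tmed5, a gene of the secretory pathway (difference 0.167), Igsf11 and Fam124a (0.213 each). Tmed5 stood at 132 ± 13.1 and 66.4 ± 21.5 CPM (SD, n = 4 each). Nearest to Socs2 were Ces3a (0.515), Slco1a1 (0.579) and Ces3b (0.581), genes of carboxylesterases and of an organic anion transporter.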

How the data were processed

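The authors deposited 1 table of the raw count per gene and library for 8 liver libraries, 4 in each group, made from mRNA libraries of RNeasy-extracted RNA per the labels' protocols. The submitters' processing notes name GRCm38 and mm10; aligner, counter and strand use are not given there. The deposited FPKM values, per the file headers, are the authors' and were used for levels between genes. The deposited log2 fold change, p-value and adjusted p-value come from the authors' comparison, made with a tool they do not name. The authors' mean signal per group was not used.

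Counts were filtered with filterByExpr (11729 of 54532 genes left), TMM-normalized and tested with edgeR 4.0.16 in R 4.3.3 (robust quasi-likelihood F test, Benjamini-Hochberg, threshold 0.05); SE is the log2 fold change over the root of F. The log2 CPM used a prior count of 2. The test was tried on simulated data, where it recovered 9.38% of 2-fold, 55.4% of 4-fold and 83.3% of 8-fold changes. A gene that did not pass is therefore not shown to be unchanged. Alternatives were DESeq2 1.42.0, limma-voom (limma 3.58.1), upper-quartile and RLE scaling, no filter, 1 CPM in 4 samples, a non-robust fit, limma on log2(FPKM + 1) and log2(FPKM + 0.1), mitochondrial genes left out, the mitochondrial share as a covariate, a threshold of 0.01, and each library left out; scaling to hepatocyte markers was added later. The members, lists and alternatives were chosen with earlier results of these data known. Named were the 10 genes, up to 4 called genes per list with the smallest p, and the 3 nearest profiles of Igf1, Socs2 and Igfbp1 with a mean of at least 2 CPM (those of Igfbp1 are not reported here); any other gene is marked in the text as picked with its values known. Promoter and protein sequences were not analysed here. No value column was left unmapped to a sample or comparison.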

Additional observations from a re-analysis of the deposited data

Results flagged for a closer look

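Of the 20 sets of 4 values (10 genes in 2 groups), 2 had a library far from the other 3, where chance gives about 1 in 20. Both were library 65 of the diet-alcohol group. Socs2 stood at 13.0 CPM there and at 3.99 to 4.05 CPM in the other 3 libraries of the group. Cish stood at 4.31 CPM there and at 0 to 0.535 CPM in the other 3, on 39 counts.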

How the results depend on the processing

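No paired analysis was possible because the 2 groups share no library numbers. The count of genes past the threshold was 148, and it was 484 with DESeq2, 320 with no filter on low counts, 55 with the mitochondrial share as a covariate, 61 at an adjusted p threshold of 0.01 and 5329 when scaled to hepatocyte markers. Leaving out 1 library gave 58 to 308, with more than 1.5-fold changes without DSS 48 (58), DSS 49 (74), DSS 50 (77), diet-alcohol 45 (83) and 35 (308). Of the 10 genes, 3 fell; 1 did with the mitochondrial covariate, and 2 to 4 did when a library was left out. None rose, except 2 when scaled to hepatocyte markers. The directions of Socs2, Igfals, Igfbp2 and Cish held in every fit; Cish could not be fitted at 1 CPM in 4 samples. Scaling to hepatocyte markers turned Ghr (0.46), Stat5a (0.52) and Igf1 (0.084). Other turns were Stat5b without DSS 49 (-0.00092) or diet-alcohol 45 (-0.011; 0.11 at most, without library 71), Bcl6 with limma-voom (-0.76), on log2(FPKM + 0.1) (-0.020) or without library 65 (-0.0040; up to 0.88, without library 35), and Igfbp1 with the mitochondrial covariate (-0.39) or without library 71 (-0.12; up to 0.71, without DSS 48). The cause was not tested. Socs2 stood at -1.71 on log2(FPKM + 1), where the pseudocount shrinks genes of low FPKM. The SEs of Cish and Bcl6 were 1.10 and 0.91, and that of Bcl6 was 0.43 without library 35.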

Other observations

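Some female-biased genes of the list did not pass the filter on low counts and were not tested. Sult1e1, which encodes an estrogen sulfotransferase, had 0 counts in all 4 DSS libraries and 0.331 to 11.7 CPM in the diet-alcohol libraries. The low end lay under the level of 3 counts in DSS 49 and 50 (0.359 and 0.447 CPM), so a 0 there is not shown to be lower. Cyp2b10, which the nuclear receptor CAR induces, had 0 counts in the DSS libraries and 0.635 to 2.18 CPM in the diet-alcohol libraries. Cux2, a female-biased transcription factor gene of liver, had 1.63 ± 1.15 CPM in the DSS group and 0.406 ± 0.552 CPM in the diet-alcohol group (SD, n = 4 each). Cyp3a16, Cyp3a41a, Cyp3a41b and Sult2a1 had no count in any library. These genes were named after their values were seen.

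Markers of other cells were compared beside the axis. None of the tested Kupffer (9), stellate (10), sinusoidal endothelial (8), cholangiocyte (4) or T and NK cell (1) markers passed by edgeR, and their sums overlapped between the groups. At an unadjusted p under 0.05, 2 sinusoidal endothelial markers were lower, as by DESeq2, and 0 of the others passed either way. Over all 11729 genes tested, DESeq2 called 264 lower, and an unadjusted p by edgeR of 0.052 (Ghr) ranked 1408.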
